A study of Mus musculus with 8 samples.

Results

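The genes described here build the COPII coat and load collagen into it. They are Mia3, Sec31a, Sec24d, Sec24a, Sec24b, Sec23a, Sec23b, Sar1a, Sar1b and Sec13, 10 of the 17097 genes measured, taken by name from the deposited expression table. Each gene was read from the brightest probe set that names it alone (its main probe set), with its other probe sets kept beside it, which gave 16 probe sets for the 10 genes. The cells were dermal fibroblasts of female mice kept on high fat (HFD) or on normal food (ND) for 6 months, starting when they were 2 months old, of a strain that the labels used here do not name. They were obtained from collagenase-digested skin without the tissue beneath the dermis, by a sort for Pdgfra and CD34 and against CD45, CD117, CD24, CD31 and EpCam, at 10000 cells per sample, and their RNA was amplified over 20 cycles before hybridisation. There were 4 arrays per diet, numbered by specimen. The labels exclude ND 4 by quality control, so HFD 1 to 4 were compared with ND 1 to 3, and ND 4 is given beside them as a value only. Nothing in the labels says that specimens are separate animals beyond the group size in the design, so p-values measure the spread between these specimens.

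COPII is the protein coat that buds transport vesicles from the endoplasmic reticulum. The small GTPase Sar1 inserts into the membrane and recruits Sec23 and Sec24, which form the inner coat, and Sec24 picks the cargo. Sec13 and Sec31 then assemble around them as an outer cage. Procollagen is too rigid and long for an ordinary vesicle, and fibroblasts, which secrete much of it, need the membrane protein Mia3 (also called TANGO1), which holds procollagen inside the endoplasmic reticulum and Sec23 outside it while a larger carrier forms.

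In HFD fibroblasts, Mia3 and the cargo adaptor gene Sec24b fell on their main probe sets and the outer coat gene Sec13 rose (limma, adjusted p under 0.05). The falls were 1.29-fold for Mia3 and 1.31-fold for Sec24b, and the rise was 1.39-fold for Sec13. Thus 3 of the 10 genes passed, 1 higher and 2 lower, where 5.35% of all 17097 genes passed, 2.62% higher and 2.73% lower. All 10 were brighter than the median gene, and brighter genes passed more often. With the dimmer genes left out, 4 of the 10 and 1387 of 8554 genes passed. None of the 10 passed without ND 3, HFD 2, HFD 3 or HFD 4, with all 8 arrays, or with a covariate for RNA quality, which differed between the diets, or for keratinocyte markers. In these settings 0 to 6 of the 10, and 604 to 3330 of all 17097 genes, had an unadjusted p under 0.05 in limma. At the adjusted threshold 0 to 212 genes of the whole table passed. With the mean of each gene's probe sets in place of the main one, Mia3 (−0.23, limma adjusted p = 0.116) and Sec24b (−0.19, adjusted p = 0.184) did not pass, and Sec24a and Sec13 did. Of the 10, 8 differed in the negative direction, with a median of −0.21 on the log2 scale, against a median of 0.017 over all genes tested. The 10 genes were chosen with earlier results of these data known, so these counts and medians are a description only. The dimmer probe set of Sec24a had the largest change of all 16 probe sets, −1.38, while its main probe set differed by only −0.17. Lower values in these bulk samples may stand for less RNA per cell or for fewer cells that make it, which cannot be told apart.

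The promoters are shown for the 3 genes that passed and for Sec24d, whose window holds the longest of the short motifs searched. They are the 250 bases before the annotated start, read 5′ to 3′ on the gene's strand, from RefSeq (GRCm38.p6), in whose table all 10 genes were found. The gene models of Sec24b and Sec24d also hold transcripts that start farther upstream. Capitals mark TGACGT, the core of elements bound by CREB and ATF family factors, ACGTGG, or CCAAT, on either strand, and in Sec24d the first 2 overlap to give TGACGTGG.
Mia3, chr1:183369566-183369815, minus strand: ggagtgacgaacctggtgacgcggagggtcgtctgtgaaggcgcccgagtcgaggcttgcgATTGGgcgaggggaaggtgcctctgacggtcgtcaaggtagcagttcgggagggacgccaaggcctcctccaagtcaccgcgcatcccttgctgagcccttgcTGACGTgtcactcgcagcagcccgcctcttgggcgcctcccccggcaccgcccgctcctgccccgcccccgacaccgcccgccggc
Sec24b, chr3:130060908-130061157, minus strand: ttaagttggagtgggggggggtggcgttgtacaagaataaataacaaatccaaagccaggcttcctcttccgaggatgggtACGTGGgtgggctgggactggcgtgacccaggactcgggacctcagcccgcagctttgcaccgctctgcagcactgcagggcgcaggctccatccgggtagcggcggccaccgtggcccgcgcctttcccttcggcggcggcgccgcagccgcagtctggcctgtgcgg
Sec24d, chr3:123267246-123267495, plus strand: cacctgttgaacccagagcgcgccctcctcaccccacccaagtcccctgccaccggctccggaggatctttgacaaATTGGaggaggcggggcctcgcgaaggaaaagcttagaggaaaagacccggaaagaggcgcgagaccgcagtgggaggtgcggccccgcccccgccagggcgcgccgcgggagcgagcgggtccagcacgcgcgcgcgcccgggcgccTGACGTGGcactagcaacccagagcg
Sec13, chr6:113740682-113740931, minus strand: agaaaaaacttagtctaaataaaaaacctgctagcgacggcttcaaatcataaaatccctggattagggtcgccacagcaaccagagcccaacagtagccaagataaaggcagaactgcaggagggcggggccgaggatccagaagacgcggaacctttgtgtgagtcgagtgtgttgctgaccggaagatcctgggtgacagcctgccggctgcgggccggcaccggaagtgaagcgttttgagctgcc

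TGACGT lay in the windows of 5 of the 10 genes, Mia3, Sec24d, Sec24a, Sec23b and Sar1a, and in 6.47% of all 32851 promoter windows of the same length. ACGTGG lay in those of 4 genes, Sec31a, Sec24d, Sec24b and Sar1a, and in 6.91% of all windows. TGACGTGG, which both of these make when they overlap, lay only in that of Sec24d among the 10 genes, and in 0.563% of all windows. CCAAT lay in those of 4 genes, Mia3, Sec24d, Sec23b and Sar1b, and in 33.8% of all windows. The endoplasmic reticulum stress element, CCAAT and CCACG set 9 bases apart, lay in none of the 10 genes' windows and in 0.113% of all windows. The Sec24a window lies inside that gene's model, which has transcripts that start farther upstream, so it may not be a promoter, and without it TGACGT lay in the windows of 4 genes. Sec23b and Sec31a have 2 windows each, and either was counted, while the shares over all windows count each window once. The ACGTGG of Sec31a lay only in the window of its start farther downstream. Without that window ACGTGG remained in those of Sec24d, Sec24b and Sar1a. The match is a description of these letters and does not show a bound site.

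Mia3, the collagen export receptor, was at 10.60, 10.66 and 10.73 in ND 1, 2 and 3 on its main probe set (1434698_PM_at, log2 values), and at 10.39, 10.29, 10.26 and 10.24 in HFD 1 to 4. Every HFD array lay below every ND array compared, and ND 4, at 10.38, lay below HFD 1. The ND mean was 10.66 ± 0.07 (SD, n = 3) and the HFD mean 10.30 ± 0.07 (SD, n = 4), which is a difference of −0.37 (SE 0.07; limma adjusted p = 0.0299) in log2 units. The change kept its size when any array was left out, between −0.40 and −0.34. Its adjusted p rose above the threshold without ND 2 (0.0572), ND 3 (0.114), HFD 2 (0.0649), HFD 3 (0.0784) or HFD 4 (0.0904), and not without ND 1 or HFD 1. Over the 5 arrays of low nonspecific background the difference was −0.40 (limma adjusted p = 0.0512).

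The probe sets of Mia3 disagreed. The probe set 1455066_PM_s_at, drawn from the same sequence record as the main one, was at 10.21, 10.29 and 10.70 in ND 1 to 3 and at 9.90, 9.65, 9.49 and 9.54 in HFD 1 to 4, a change of −0.76 (SE 0.14, adjusted p over all probe sets = 0.0256). The groups did not overlap there either, and ND 4, at 9.90, matched HFD 1. The adjusted p rose to 0.0887 without ND 3, 0.0553 without HFD 2, 0.0687 without HFD 3 and 0.0786 without HFD 4, with changes between −0.85 and −0.61. The letter s in its name marks probes that can match more than 1 transcript. The remaining pair, drawn from other expressed sequence tags, showed no such fall: 1459984_PM_at differed by 0.17 (95% interval −0.07 to 0.41) and 1459070_PM_at by 0.02 (−0.15 to 0.20), and their groups overlapped. Each of these 3 probe sets differed from the main one in its change (exact two-sided permutation p = 0.0286 for each, the smallest the 35 splits of the arrays give, and adjusted p = 0.0286 over 6 such differences). Where in the transcript each probe set lies was not analysed here.

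**Figure D1:**
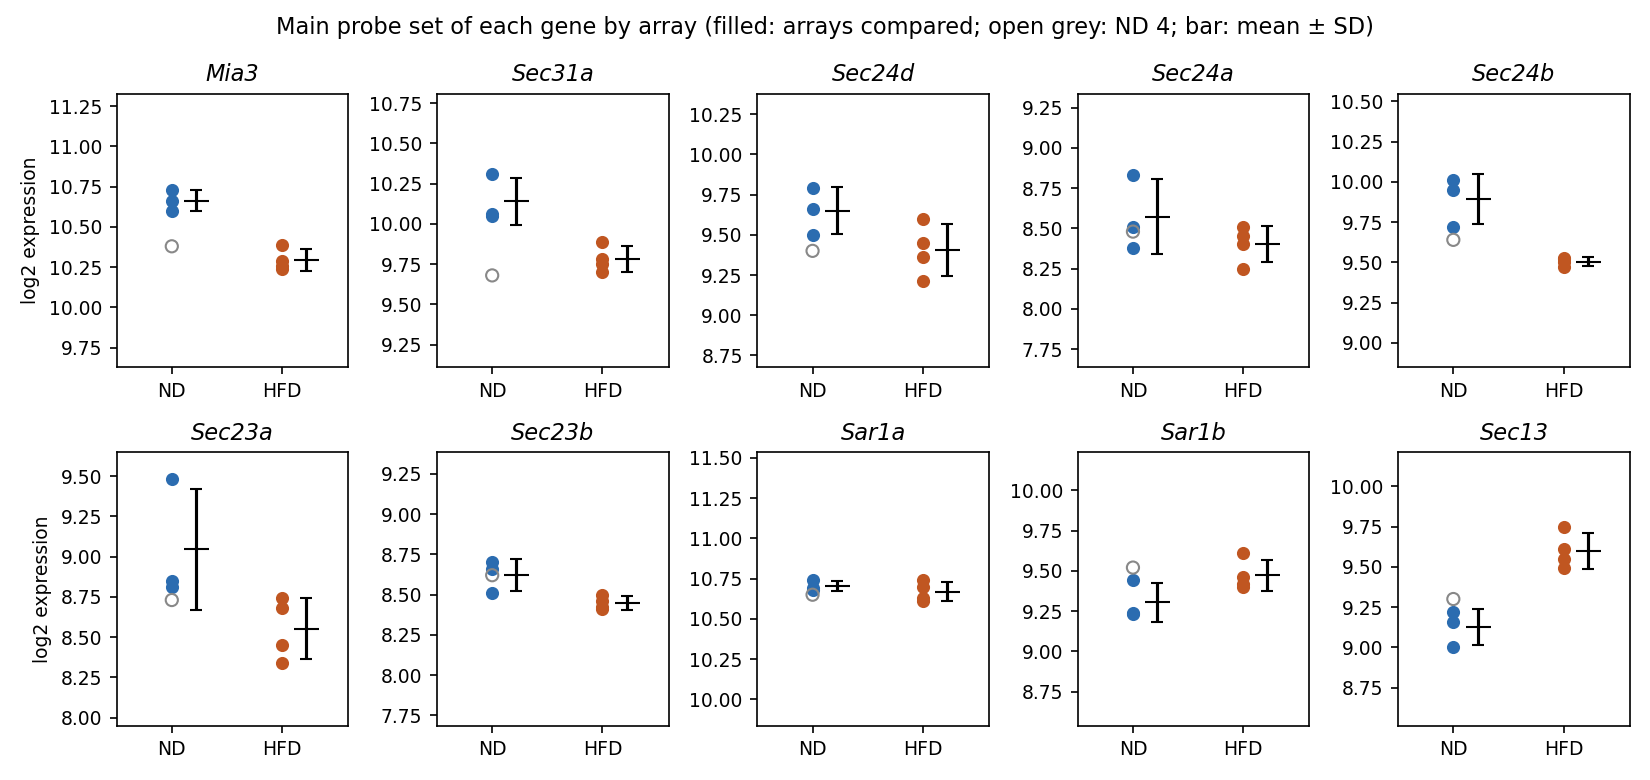
Log2 expression on the main probe set of each of the 10 genes, with ND and HFD arrays as points and the mean ± SD beside them (ND n = 3, HFD n = 4; open grey circles are ND 4, which is in no mean). All panels span the same log2 range; HFD arrays lie wholly below ND 1 to 3 for Mia3, Sec31a, Sec24b, Sec23a and Sec23b and wholly above for Sec13.

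The GTPase genes did not pass. Sar1a, which encodes the widely expressed form, was at 10.74, 10.68 and 10.69 in ND 1 to 3 and at 10.74, 10.61, 10.63 and 10.70 in HFD 1 to 4. These ranges overlapped, and the change was −0.03 (95% interval −0.19 to 0.12). Its other probe set, 1415696_PM_at, shares a sequence record with the main one and was at 10.39, 10.45 and 10.21 in ND and at 10.58, 10.50, 10.54 and 10.70 in HFD. Here every HFD array lay above ND 1 to 3 and the change was 0.23 (SE 0.09, adjusted p over all probe sets = 0.147), so this gene gave opposite signs on its probe sets. The difference between them was 0.26 (exact two-sided permutation p = 0.0286). The mean of both probe sets gave 0.10.

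Sar1b, the form needed to secrete chylomicrons in the gut, was at 9.44, 9.24 and 9.23 in ND 1 to 3 and at 9.61, 9.42, 9.40 and 9.46 in HFD 1 to 4. The lowest HFD arrays lay below ND 1, and ND 4, at 9.52, lay above 3 of the HFD arrays. The change was 0.17 (95% interval −0.04 to 0.37, limma adjusted p = 0.325). Between the main probe sets, the changes of Sar1a and Sar1b differed by −0.20 (exact two-sided permutation p = 0.0286), which did not hold after adjustment over the 8 paralog pairs compared (adjusted p = 0.0762). As 0.0286 is the smallest p the 35 splits of the arrays give, a pair could pass only if most of the 8 gave it.

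Of the inner coat genes, Sec23a encodes the activator of the Sar1 GTPase whose loss in people causes a craniofacial disorder with poor collagen export. It was at 8.81, 8.85 and 9.48 in ND 1 to 3 and at 8.74, 8.45, 8.34 and 8.68 in HFD 1 to 4. The HFD arrays all lay below ND, though HFD 1 was close to ND 1, and ND 3 stood far above its group. The change was −0.49 (SE 0.17), with an adjusted p = 0.112 that did not pass. Without ND 3 it was −0.28, and with the RNA quality covariate −0.032.

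Its paralog Sec23b, lost in an inherited anaemia of red cell precursors, was at 8.70, 8.51 and 8.66 in ND 1 to 3 and at 8.42, 8.46, 8.41 and 8.50 in HFD 1 to 4. HFD arrays lay below ND by a narrow margin, since HFD 4 and ND 2 were 8.50 and 8.51. The change was −0.18 (95% interval −0.37 to 0.01, limma adjusted p = 0.263). The paralogs' changes differed by −0.32 (exact two-sided permutation p = 0.171, adjusted p = 0.32 over 8 pairs), so no difference between Sec23a and Sec23b was shown.

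Sec24b, a cargo adaptor of the subclass that also holds Sec24a, was at 9.95, 9.72 and 10.01 in ND 1 to 3 on 1426849_PM_at, and at 9.47, 9.50, 9.52 and 9.53 in HFD 1 to 4. The HFD arrays lay close together and below every ND array, ND 4 (9.64) included. The ND mean was 9.89 ± 0.15 (SD, n = 3) and the HFD mean 9.51 ± 0.03 (SD, n = 4), which is a difference of −0.39 (SE 0.09) in log2 units (limma adjusted p = 0.0390). The call held without ND 2 and was lost without ND 1 (0.0741), ND 3 (0.154), HFD 1 (0.0553), HFD 2 (0.0851), HFD 3 (0.0907) or HFD 4 (0.0997), with changes between −0.48 and −0.33. The other probe set of Sec24b, 1426848_PM_at, comes from the same sequence record and is the dimmer. It was at 7.58, 7.69 and 7.76 in ND 1 to 3 and at 7.63, 7.69, 7.76 and 7.63 in HFD 1 to 4, which overlap almost fully, with a change of 0.00083 (95% interval −0.19 to 0.19). The probe sets differed in their change by 0.39 (exact two-sided permutation p = 0.0286).

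Sec24a was at 8.38, 8.83 and 8.51 in ND 1 to 3 on its main probe set 1438121_PM_at, and at 8.25, 8.40, 8.45 and 8.51 in HFD 1 to 4. The groups overlapped, with a change of −0.17 (95% interval −0.43 to 0.09, limma adjusted p = 0.450), which was −0.27 without ND 1 and −0.0425 without ND 2. On 1433934_PM_at the gene was at 7.91, 8.34 and 8.89 in ND 1 to 3 and at 7.35, 6.87, 6.79 and 6.98 in HFD 1 to 4. There every HFD array lay below ND 1 to 3, and ND 4 had the value of HFD 1 (7.35). The change was −1.38, or 2.61-fold (SE 0.21, adjusted p over all probe sets = 0.0211), and it differed from that of the main probe set by −1.21 (exact two-sided permutation p = 0.0286). Without ND 3 the change was −1.13 (adjusted p = 0.0618), and the adjusted p was 0.0561 without HFD 3 and 0.0697 without HFD 4. The mean of both probe sets gave −0.78 (SE 0.13, limma adjusted p = 0.0310), so whether Sec24a counts as changed turns on the probe set. Sec24a and Sar1b lie near each other on chromosome 11 on opposite strands, with 1 uncharacterised gene between them in the RefSeq table.

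**Figure D2:**
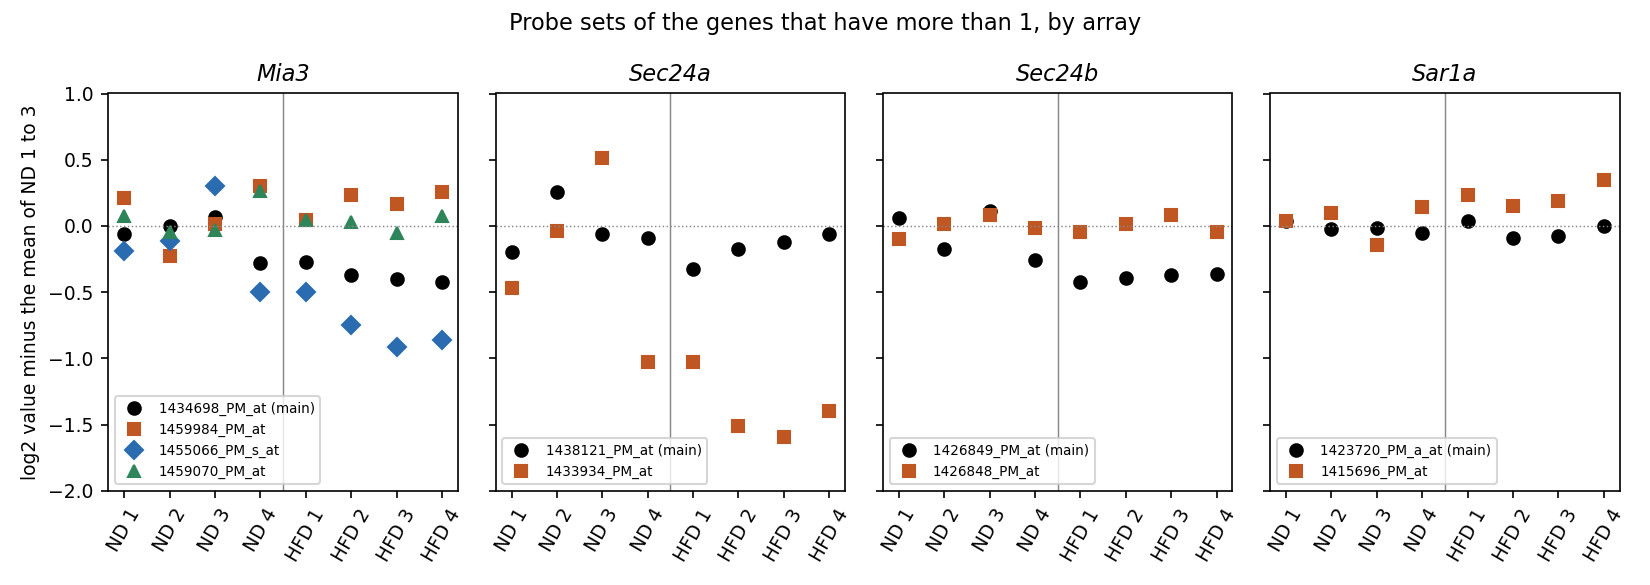
Log2 value of each probe set minus its own mean over ND 1 to 3, by array, for the 4 genes with more than 1 probe set (black circles are the main probe sets; the vertical line divides the diets). 1433934_PM_at of Sec24a and 1455066_PM_s_at of Mia3 fall in HFD, where their ND 4 values match HFD 1, while 1426848_PM_at of Sec24b stays near 0 on every array.

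Sec24d, of the other adaptor subclass and mutated in a brittle bone syndrome, was at 9.50, 9.66 and 9.79 in ND 1 to 3 and at 9.45, 9.21, 9.36 and 9.60 in HFD 1 to 4. HFD 4 lay above ND 1, so the groups overlapped. The change was −0.25 (95% interval −0.49 to 0.001, limma adjusted p = 0.228). Sec24c, the remaining paralog, differed by 0.08 (adjusted p = 0.680). Against Sec24c, the change of Sec24b differed by −0.47 and that of Sec24d by −0.32 (exact two-sided permutation p = 0.0286 for each), but neither held over the 8 pairs (adjusted p = 0.0762 for each). The other pairs of the Sec24 family gave exact p from 0.2 to 0.629. No member of the family was therefore shown to differ from another on the main probe sets. The 35 splits give no exact p below 0.0286, so the test could hardly pass over 8 pairs and does not exclude a difference. With the mean of each gene's probe sets, the difference turned from 0.22 to −0.58 for Sec24a against Sec24b, from 0.07 to −0.53 for Sec24a against Sec24d and from −0.14 to 0.051 for Sec24b against Sec24d.

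Of the outer coat genes, Sec13 rose and Sec31a did not pass. Sec13, a scaffold that also serves in the nuclear pore and in nutrient sensing at the lysosome, was at 9.22, 9.16 and 9 in ND 1 to 3 and at 9.61, 9.49, 9.55 and 9.75 in HFD 1 to 4. Every HFD array lay above every ND array, ND 4 (9.30) included. The ND mean was 9.13 ± 0.11 (SD, n = 3) and the HFD mean 9.60 ± 0.11 (SD, n = 4), which is a difference of 0.47 (SE 0.09) in log2 units (limma adjusted p = 0.0293). Between 0.41 and 0.52 remained whichever array was left out, but the call was lost without ND 2 (0.0525), ND 3 (0.114), HFD 2 (0.0518), HFD 3 (0.0729) or HFD 4 (0.0886), and also over the 5 arrays of low background (0.0654). The gene has 1 probe set, so no second one was at hand to set beside it.

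Sec31a, which with Sec13 forms the rods of the outer cage, was at 10.05, 10.06 and 10.31 in ND 1 to 3 and at 9.89, 9.70, 9.75 and 9.78 in HFD 1 to 4. The HFD arrays lay below ND 1 to 3, while ND 4, at 9.68, was the lowest of all 8. The change was −0.36 (SE 0.09) with an adjusted p = 0.0512, just short of the threshold. It passed in 5 of 20 alternatives: without HFD 1 (0.0457), without the dimmer genes (0.0311), with eBayes without trend (0.0443) or robust (0.0496) and with array weights (0.0426). Those in which it did not pass include the fits without ND 3 (0.190), HFD 2 (0.117), HFD 3 (0.122) or HFD 4 (0.124), and with the specimen number as a block (0.233). With ND 4 included the change was −0.25 (adjusted p = 0.345). Taken within each array, the change of Sec13 exceeded that of Sec31a by 0.83, a pair chosen after its values were seen. Every HFD array lay above ND 1 to 3 in Sec13 and below them in Sec31a. The exact two-sided permutation p of the difference (0.0286) was therefore fixed at its smallest value and adds no evidence.

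Over the 10 main probe sets, the diets were fully separated in 6 genes, Sec13 above and Mia3, Sec31a, Sec24b, Sec23a and Sec23b below, where 17.9% of all genes were, 9.95% above and 7.99% below. An unadjusted p under 0.05 was reached by 5 of the 10, against 22.1% of all genes. With the dimmer genes left out, it was reached by 5 of the 10 and by 2869 of 8554 genes. Of the 16 probe sets, 5 passed, 1 higher and 4 lower, where 4.75% of all 28898 named probe sets passed. These were single probe sets of Sec24a, Sec24b and Sec13 and 2 of Mia3. The diets were separated on 9 of the 16, 2 above and 7 below, where 18.1% of all named probe sets were.

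**Figure D3:**
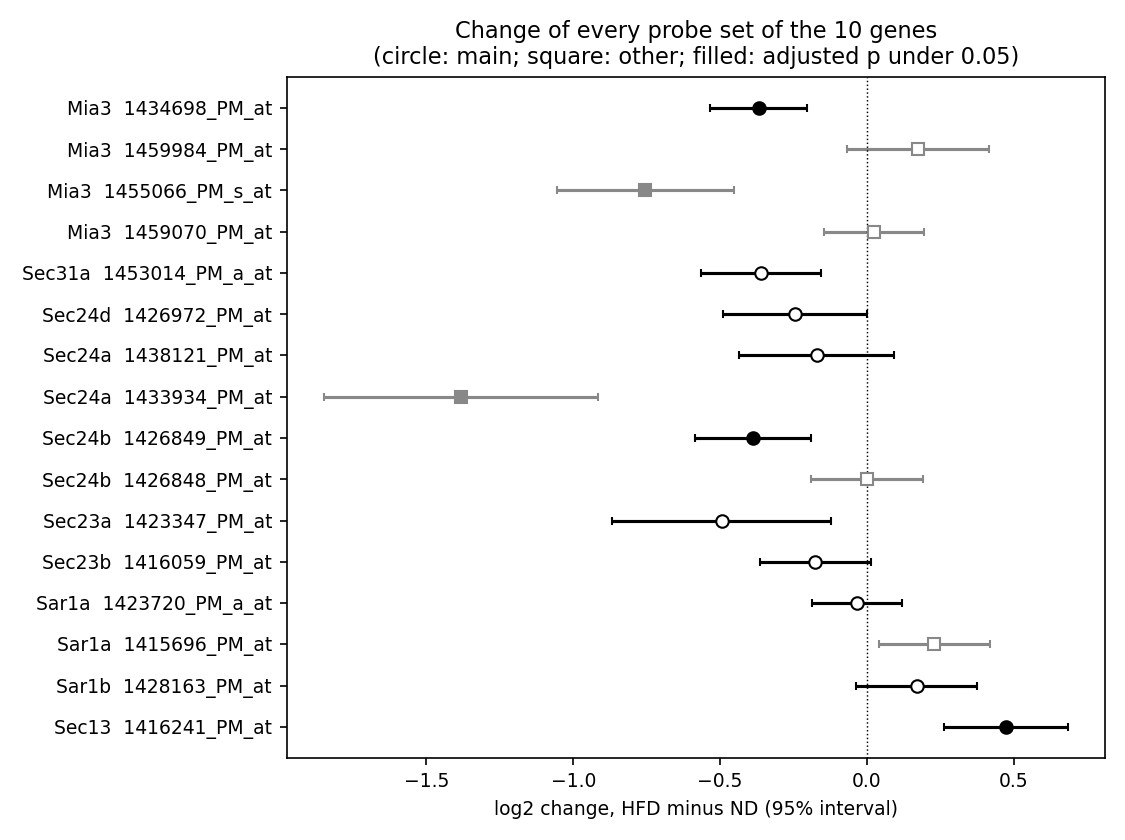
Log2 change (HFD minus ND) with its 95% interval for all 16 probe sets of the 10 genes; circles are main probe sets, squares the others, and filled symbols passed an adjusted p of 0.05 over all probe sets. The widest change is that of the dimmer Sec24a probe set at −1.38, and the intervals of the 2 Sec24a probe sets do not meet.

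Other measures of the arrays moved with the diets. For the Gapdh and Actb controls, the 3′ value less the 5′ value, a sign of RNA quality, was −0.34 to −0.18 in ND 1 to 3 and −0.44 to −0.38 in HFD, with ND 4 at −0.37. With it as a covariate, the change was −0.29 (SE 0.13) for Mia3, −0.20 (SE 0.15) for Sec24b, 0.30 (SE 0.16) for Sec13 and −0.13 (SE 0.15) for Sec31a, and no gene of the whole table passed in limma (0 of 17097, with 604 at an unadjusted p under 0.05). This measure separated ND 1 to 3 from HFD fully, so the parts of RNA quality and of diet cannot be told apart here. The covariate also widened the errors, for Mia3 from an SE of 0.07, so the loss of calls does not show which of them the changes follow. Of 16 keratinocyte markers 14 were measured, all 14 differed in the positive direction and 0 passed. Their median change was 0.35, the largest were those of Perp (1.55), Dsp (1.41) and Krt1 (1.14), and the groups overlapped in all 14. The mean of the 14 was 6.38 to 6.86 in ND 1 to 3 and 6.46 to 7.78 in HFD. With that mean as a covariate, Mia3 differed by −0.32 (SE 0.09), Sec24b by −0.43 (SE 0.11) and Sec13 by 0.51 (SE 0.12), none past the threshold (adjusted p = 0.106 to 0.135). Of 10 fibroblast markers, Lum and Fbln1 fell, and their mean was 11.59 to 11.62 in ND and 11.53 to 11.63 in HFD. Pdgfra, for which the cells were sorted, differed by 0.34 (95% interval 0.09 to 0.60, limma adjusted p = 0.103) and did not pass. Its arrays read 5.97, 6.01 and 5.79 for ND 1 to 3, and 6.39, 6.49, 6.02 and 6.17 for HFD 1 to 4. The diets were thus separated by a narrow margin, and ND 4, at 6.15, lay among the HFD arrays. All of these values were below that of the median gene (6.77). Cd34, the other marker sorted for, differed by 0.01 (limma adjusted p = 0.918), and its groups overlapped. None of these markers' part in the changes above was tested beyond the covariates. The mean of 11 blood markers was 6.07 to 6.13 in ND and 6.05 to 6.17 in HFD, and that of 8 endothelial markers 5.90 to 6.08 and 5.94 to 6.18, so the diets overlapped in both. The mean of 6 mural markers was 6.615 to 6.883 in ND and 6.872 to 7.01 in HFD, a narrow overlap. Of these markers 5 differed in the positive direction and 1 in the negative, and 0 passed. Of the blood markers only Tyrobp passed, at 0.32 (limma adjusted p = 0.0352).

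The rest of the early secretory pathway was followed through 6 lists of companion genes. Over them 9 of 96 measured genes passed, 2 higher and 7 lower, or 9.38% against 5.35% of all genes. The mean of each list lay above the median gene (6.77) on every array compared, and brighter genes passed more often. With the dimmer genes left out, 1387 of 8554 genes passed, so the share over all genes is a low one to set beside these lists. The median change over the 96 genes was 0.035. Without ND 3, HFD 3 or HFD 4 the count was 0, without HFD 2 it was 2, and without ND 2 it was 5.

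Among 11 other genes of the COPII coat and its exit sites, Sec23ip, which bridges the inner and outer coat, fell by 0.83 in log2 units (SE 0.18, adjusted p = 0.0352), and 10 did not pass. Its other probe set, of similar brightness, differed by −0.23 (unadjusted p = 0.0994). Tfg, which organises exit sites, differed by −0.46 (adjusted p = 0.0523). Klhl12, the adaptor through which Cul3 tags Sec31a to enlarge carriers, differed by 0.27 (adjusted p = 0.194), and Pdcd6, a calcium sensor that binds Sec31a, by 0.21 (adjusted p = 0.238). Without ND 3 these were 0.145 for Klhl12 and 0.11 for Pdcd6. The Mia3 partner Mia2 was dim on the probe set annotated to it (−0.05, adjusted p = 0.667). A probe set listed under Ctage5, an older name of Mia2 in the RefSeq table, was at 6.34, 6.41 and 6.70 in ND 1 to 3 and at 6.32, 6.18, 6.10 and 5.98 in HFD 1 to 4. Those groups did not overlap, though HFD 1 was close to ND 1, and the change was −0.34 (adjusted p over all probe sets = 0.102).

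Of 19 cargo receptors 0 passed in limma, with 5 at an unadjusted p under 0.05 and a median change of 0.12. Tmed2, a p24 family receptor, differed by 0.33 (adjusted p = 0.0521) and Tmed5, of the same family, by −0.43 (adjusted p = 0.103). Ergic1, which cycles between the endoplasmic reticulum and the Golgi, differed by −0.40 (adjusted p = 0.0711), and the lectin receptor Lman2 by 0.32 (adjusted p = 0.130). Without ND 3, Tmed5 was at −0.255 and Lman2 at 0.1975.

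Among 31 genes of tethering and fusion, Rint1, part of the tether for returning vesicles, fell by 0.60 in log2 units (SE 0.09, adjusted p = 0.0224). Trappc8, of the TRAPP III tether, fell by 0.50 in log2 units (SE 0.11, adjusted p = 0.0374), and Trappc6b, of the TRAPP core, rose by 0.34 (SE 0.08, adjusted p = 0.0467). The other probe set of Trappc6b differed by 0.07. The remaining 28 did not pass, among them the SNARE gene Use1, at 0.50 (adjusted p = 0.0531).

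The COPI coat returns membrane and escaped proteins to the endoplasmic reticulum. Of 17 genes of this route, 3 fell and 1 rose. Gbf1, which activates the GTPase Arf1, fell by 0.59 in log2 units (SE 0.11, adjusted p = 0.0242), the coat subunit Copa fell by 0.35 (SE 0.08, adjusted p = 0.0440) and the retrieval receptor Kdelr2 fell by 0.33 (SE 0.08, adjusted p = 0.0443). Arfgap2, which switches Arf1 off, rose by 0.51 (SE 0.11, adjusted p = 0.0353). The dimmer probe sets of Arfgap2 differed by 0.00083 and −0.0033, that of Copa by 0.31 in the opposite direction (unadjusted p = 0.0472), and that of Kdelr2 by −0.41. The 4 other probe sets of Gbf1 differed by −0.67, −0.35, 0.013 and 0.13.

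Among 8 regulators of secretory genes, Creb3l1, a membrane-bound transcription factor needed for collagen output in bone, fell by 0.53 in log2 units (SE 0.09, adjusted p = 0.0224), and 7 did not pass. It has a single probe set. Its relative Creb3l2, an activator of Sec23a in cartilage, differed by −0.18 (adjusted p = 0.208) on its main probe set and by 0.12 as the mean of its probe sets. The protease Mbtps1, which releases these factors, differed by 0.38 (adjusted p = 0.0755) and Atf6 by 0.26 (adjusted p = 0.172). The collagens that this machinery exports did not pass, 0 of 10 in limma and 0 at an unadjusted p under 0.05, with a median change of 0.11. Those of smallest p were Col1a2 (−0.19), Col14a1 (0.72), Col12a1 (0.13) and Col6a3 (0.33), with adjusted p from 0.267 to 0.416. Col12a1 was dim, with means of 5.67 in ND and 5.8 in HFD, below the median gene (6.77), which limits what its value can show. Leaving out 1 array took Col14a1 from 0.27 (ND 3) to 1.30 (ND 1) and Col6a3 from 0.15 (HFD 1) to 0.49 (HFD 2).

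**Figure D4:**
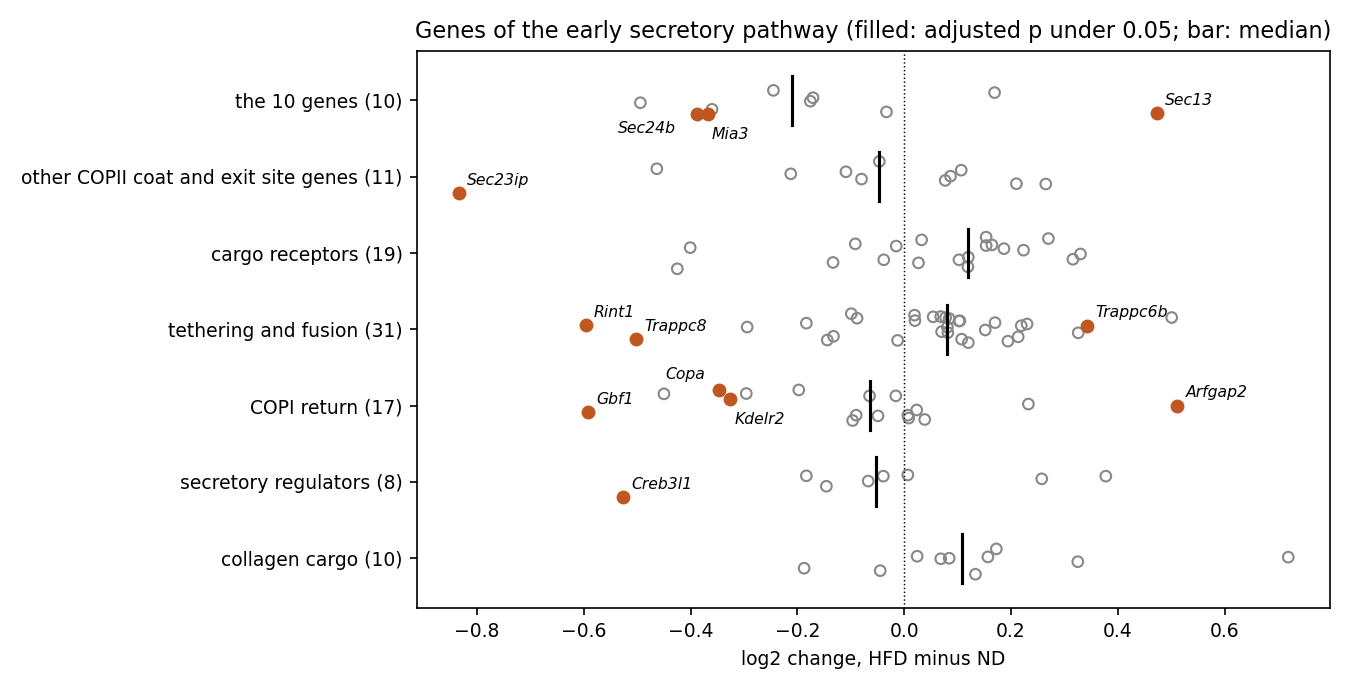
Log2 change (HFD minus ND) of each measured gene, by list, with the number of genes in brackets; filled points passed an adjusted p of 0.05, bars are medians, and vertical scatter within a list has no meaning. The 10 genes have the lowest median of the 7 groups shown (−0.21), with Sec13 apart at 0.47. The genes and lists were chosen with earlier results of these data known, so this order is a description only.

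**Figure D5:**
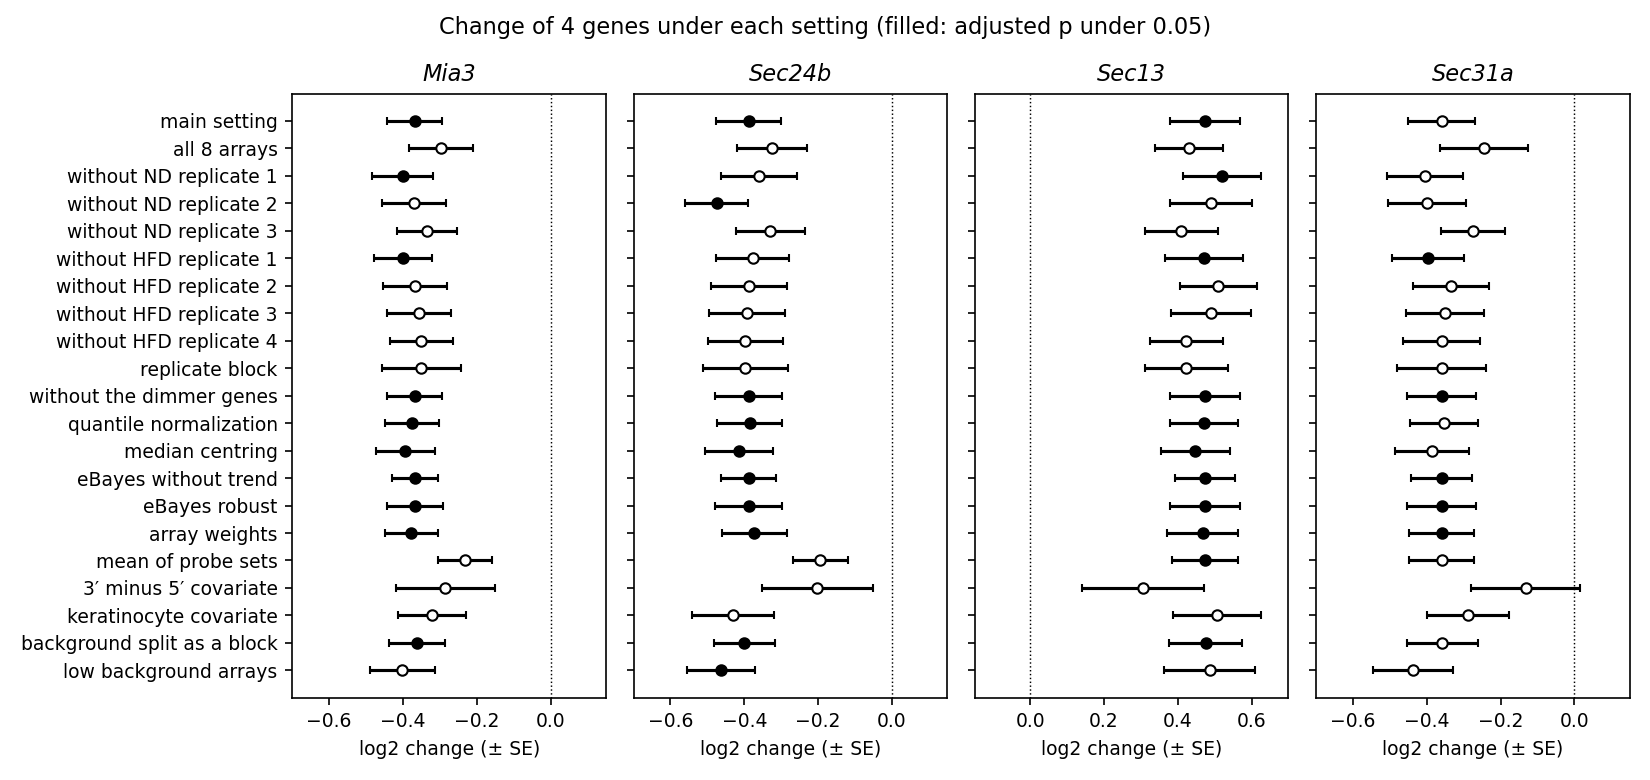
Log2 change (± SE) of Mia3, Sec24b, Sec13 and Sec31a under the main setting and 20 others; filled points have an adjusted p under 0.05. Every point keeps its direction, while the number of filled points is 9 of the 20 others for Mia3, 9 for Sec24b, 10 for Sec13 and 5 for Sec31a.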

How the data were processed

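The values are log2 expression of 45141 probe sets on 8 arrays, deposited by the authors after RMA with the affy package, per the submitters' processing notes; versions are not given in the sources used here. Array quartiles differ by at most 0.04, so a change in total RNA would not show. No further scaling was applied, and the number of arrays limits the precision.

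The platform annotation gave 1 gene symbol to 28898 probe sets and several to 551, and 28689 symbols were updated by Entrez identifier through RefSeq (GRCm38.p6). HFD 1 to 4 were compared with ND 1 to 3 in limma 3.58.1 under R 4.3.3 (lmFit, eBayes with trend) over 17097 genes or, for single probe sets, all 28898, with Benjamini-Hochberg adjustment at 0.05. Intervals are at 95%. Changes of a pair of probe sets or genes were compared by their difference within each array, over all 35 splits of the 7 arrays.

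All 10 genes were named with every probe set, and from each companion list the genes past the threshold and otherwise the 4 of smallest p. The genes and lists were chosen with earlier results of these data known. Alternatives were all 8 arrays, each array left out, the specimen number as a block, other normalizations and eBayes settings, array weights, dimmer genes left out, the mean of probe sets and both covariates. A division by nonspecific background and the pair Sec13 and Sec31a were chosen after seeing the data. The fit was tested on simulated data. Figures were drawn with matplotlib 3.10.9.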

Additional observations from a re-analysis of the deposited data

Results flagged for a closer look

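Among the 4 HFD arrays, 1 value stood apart from the others in 2 of the genes named, by the gap to its neighbour over the whole range. Atf6 was at 6.01 in HFD 1, with 6.23 as the nearest value, and Col12a1 was at 5.57 in HFD 4, with 5.85 as the nearest. Such a gap appears by chance in about 1 of 20 groups, and none of the 10 COPII and export genes or their other probe sets showed it.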

How the results depend on the processing

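Mia3, Sec24b, Sec13 and Sec31a kept their direction under all 20 alternatives run, while the calls did not hold under many of them. With all 8 arrays, 6 genes passed in the whole table, 0 of the 10 genes (5 at an unadjusted p under 0.05) and 0 companions (18). Mia3 then differed by −0.30, Sec24b by −0.33 and Sec13 by 0.43, 0 of the 16 probe sets and 0 of the 6 differences between probe sets passed, and 1459070_PM_at of Mia3 turned to −0.0425. With the specimen number as a replicate block, 1 gene passed, 0 of the 10 (6 unadjusted), 0 companions (22) and 0 probe sets, with Mia3 at −0.35, Sec24b at −0.40 and Sec13 at 0.42. Same-numbered arrays did not deviate together (correlations of −0.18, −0.29 and −0.05), so the numbers were not taken as pairs. Without the dimmer genes, 8554 genes were tested and 1387 of them passed, with 4 of the 10 (Sec31a among them) and 17 of the companions that remained. With the mean of probe sets, 400 genes and 4 companions passed, Mia3 was at −0.23 and Sec24b at −0.19, Sar1a turned to 0.10 and Creb3l2 to 0.12, and the paralog differences turned to −0.58 (Sec24a against Sec24b), −0.53 (Sec24a against Sec24d) and 0.051 (Sec24b against Sec24d). With the 3′ less 5′ covariate, 0 genes passed (604 unadjusted), 0 of the 10 (0 unadjusted) and 0 companions (3), with Mia3 at −0.29, Sec24b at −0.20 and Sec13 at 0.30, and Klhl12 turned to −0.14, Pdcd6 to −0.083, Tmed5 to 0.057, Lman2 to −0.075, Atf6 to −0.034 and Col14a1 to −0.55. With the keratinocyte covariate, 21 genes passed, 0 of the 10 (4 unadjusted) and 0 companions (24), with Mia3 at −0.32, Sec24b at −0.43, Sec13 at 0.51 and Sar1a turned to 0.0064. On the 5 arrays of low background, 1 of the 10 passed (Sec24b), Mia3 was at −0.40 and Sec13 at 0.49, and Sec24a turned to 0.0083. Quantile normalization turned 1426848_PM_at of Sec24b to −0.021. Leaving out 1 array gave 6 to 1072 genes, 0 to 3 of the 10, 0 to 13 companions and 0 to 5 probe sets. It gave −0.40 to −0.34 for Mia3, −0.48 to −0.33 for Sec24b and 0.41 to 0.52 for Sec13. It gave −0.0475 to 0.0425 for 1426848_PM_at and −0.0275 to 0.20 for Sec24a against Sec24d. No difference between probe sets can pass with 1 array left out (0 to 0 of 6), since the smallest exact p is then 0.1 or 0.0667. The cause of these shifts was not tested. The signal over background of dim probe sets, and 3 against 4 arrays, limit what can be seen.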

Other observations

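On the main probe sets, ND 4, which the labels exclude, was below HFD 1 in Mia3, Sec31a, Sec24d, Sec23a, Sar1a, Sar1b and Sec13. It was also below HFD 1 on 1415696_PM_at of Sar1a, and equal to it on 1455066_PM_s_at of Mia3 and the dimmer probe set of Sec24a. ND 4 lay between the diets in Sec24b (9.64) and Sec13 (9.30). Its keratinocyte mean was 7.23.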
